A study of Mus musculus with 15 samples.

Results

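The embryonic beta-like globin genes of the mouse, Hbb-bh1 and Hbb-y, were studied as targets of the adult beta-globin promoters, here called Hbb-b1 and Hbb-b2 as in the labels. The members were the DpnII restriction fragments on chr7 of mm9 that lie between the adult genes and the locus control region and hold both embryonic genes. They were chosen by position alone, as the fragments whose midpoints fall in a fixed window, more than 2 kb from the captured promoters. This gave 50 fragments, chr7:110980132-111003149, of 637418 listed for the adult promoters in all and of 2223 within 500 kb. The fragments were 25 to 1556 bp long and lay 4.04 to 26.6 kb from the nearer captured promoter. Since no mm9 gene annotation was used, the places of the genes are approximate.

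The mouse beta-globin locus holds embryonic and adult genes in the order of their use in development, with Hbb-y nearest to the locus control region, a group of strong erythroid enhancers upstream of it. Hbb-y and Hbb-bh1 encode beta-like chains of primitive, yolk-sac-derived red cells, and the adult genes take over in definitive red cells of the fetal liver and bone marrow. In definitive erythroid cells the adult promoters form long-range contacts with the locus control region, so the embryonic genes lie between the contacting partners.

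Contacts were measured by NG Capture-C, in which chromatin is crosslinked and cut with DpnII, neighbouring ends are ligated, and ligation products of chosen promoters are enriched with oligonucleotides in successive rounds. Erythroid cultures were grown from E12.5 fetal livers, all labelled as of the strain F1 C57Bl6/CBA. They were expanded over 5 to 7 days, cleared of mature cells that carry Ter119, and left to differentiate for 18 hours. R1R2_KO cells lacked the alpha-globin regulatory elements R1 and R2, R2R3_KO cells lacked R2 and R3, and control cells carried no deletion, with 3 libraries each, named biological replicates. ES cells (E14, an embryonic stem cell line of strain 129/Ola) had 1 library, as did cultures lacking a single alpha-globin element: R1_KO, R2_KO, R3_KO, Rm_KO and R4_KO. The deleted elements belong to the alpha-globin cluster and not to chr7; they were not analysed here. The sources used here do not say how the ES cells were grown, whether a knockout culture came from 1 or several embryos, or whether deletions were homozygous. No library measures expression, so the cell types were not checked against markers. ES cells differ from the erythroid cultures in both cell type and strain, and these cannot be told apart.

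Values are reads per 100000 chr7 reads that lie over 2 kb from the captured promoters. The 9 replicated libraries held 25573 to 63612 such reads and the 6 unreplicated ones 147721 to 236317. The unreplicated libraries are in a table without controls, so differences are taken within each table. The window was divided into 4 blocks from the adult end: a proximal spacer of 18 fragments (chr7:110980132-110987628), a block of 11 fragments around Hbb-bh1 (chr7:110987629-110993438), a middle spacer of 12 (chr7:110993439-110998124) and a block of 9 around Hbb-y (chr7:110998125-111003149). Its neighbours were the adult side, the fragments of chr7:110929928-110980131, and the control region side, the 46 fragments of chr7:111003150-111023773. A mirror window, the 64 fragments of chr7:110935472-110958539, lay at like distances beyond the other captured promoter.

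The promoters of the adult genes and of Hbb-y, the embryonic gene at the far end of the window, hold some of the same short motifs. The 250 bases before the RefSeq start are shown for Hbb-y and for Hbb-bs and Hbb-bt, the adult genes of the reference genome. They may differ in the strains used here. They are from RefSeq on GRCm38.p6, minus strand, with capitals for the CCAAT box, the CACCC box, the GATA motif GATAA, and the TATA-like letters ATAAA or TATAA, on either strand.
Hbb-y, chr7:103853208-103853457: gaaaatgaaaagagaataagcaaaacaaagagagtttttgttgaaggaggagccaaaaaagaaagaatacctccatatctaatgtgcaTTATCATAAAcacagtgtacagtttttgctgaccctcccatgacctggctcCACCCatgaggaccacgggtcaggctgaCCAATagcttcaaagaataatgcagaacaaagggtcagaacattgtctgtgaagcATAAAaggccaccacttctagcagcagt
Hbb-bs, chr7:103827929-103828178: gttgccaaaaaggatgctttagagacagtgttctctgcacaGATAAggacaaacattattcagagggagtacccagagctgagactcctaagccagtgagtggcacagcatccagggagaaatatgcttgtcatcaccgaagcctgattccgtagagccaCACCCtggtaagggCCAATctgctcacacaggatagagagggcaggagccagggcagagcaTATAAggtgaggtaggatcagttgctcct
Hbb-bt, chr7:103813924-103814173: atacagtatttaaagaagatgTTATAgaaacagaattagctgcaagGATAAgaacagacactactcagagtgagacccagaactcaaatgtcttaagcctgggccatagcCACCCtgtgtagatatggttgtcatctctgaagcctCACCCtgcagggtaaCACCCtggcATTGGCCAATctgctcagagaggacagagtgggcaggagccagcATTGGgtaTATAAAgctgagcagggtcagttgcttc
Counted from the start, Hbb-y held CCAAT at -83, CACCC upstream of it, GATAA on the opposite strand at -162, and ATAAA at -157 and -28. Hbb-bs held CCAAT at -76, CACCC at -90, GATAA at -209 and TATAA at -29. In Hbb-bt, CCAAT stood at -75 and, on the opposite strand, at -80 and -36; CACCC at -140, -104 and -89; GATAA at -204; TATAA at -28, overlapping ATAAA at -27, and TATAA on the opposite strand at -229. Such short motifs are common: of 32851 promoters in the same window, 33.8% held CCAAT, 52% CACCC, 22.6% GATAA, 37.3% ATAAA and 22.8% TATAA. The Hbb-y promoter matched Hbb-bs at 53.2% and Hbb-bt at 54.4% of aligned positions, and the adult promoters matched each other at 70.9%. No promoter of Hbb-bh1 is shown. A further gene, Hbb-bh2, has its RefSeq start between those of Hbb-bs and Hbb-y, with the same 250 bases at chr7:103840522-103840771. These held GATAA at -166 and ATAAA at -165 but no CCAAT or CACCC, and matched Hbb-y at 50.3% of aligned positions. The mm9 fragment of that start was not determined, so the Hbb-bh1 block may cover Hbb-bh2 as well. By its distance from Hbb-bs, the start may lie in chr7:110988558-110989412.

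Some libraries stood apart before any comparison. In 5 of 49 measured fragments of the window (10.2%), R1_KO held less than 50% of the median of R2_KO, R3_KO, Rm_KO and R4_KO, a threshold chosen after the values were seen. Within 500 kb the same was true of 88 of 472 fragments, or 18.6%. Of those 5 fragments, 4 were also below 50% of the same median in ES cells, and 4 were below 50% of the control mean in R1R2_KO library 1. In R1R2_KO libraries 2 and 3, none of the 5 was. Of the other 44 fragments, 10 were below 50% in ES cells, 9 in R1R2_KO library 1, and 0 in R1R2_KO libraries 2 and 3. At chr7:110994305-110994809, named after its values were seen, R1R2_KO library 1 had 18.8 reads per 100000, against 180 and 136 in R1R2_KO libraries 2 and 3 and 146 to 181 in the control libraries. The same fragment had 39.4 in ES cells and 30.1 in R1_KO, against 110 to 153 in the other 4 single knockouts. The low fragments lay in the proximal spacer (2), the Hbb-bh1 block (1) and the middle spacer (2), and none lay in the Hbb-y block. Over all 339 tested fragments, the chi-square between R1R2_KO library 1 and its replicates was 7.33 and 7.02 per degree of freedom, against 1.62 to 3.01 for the other replicate pairs. The labels give R1_KO and R1R2_KO library 1 the same strain as the other erythroid cultures, and ES cells, which share most of their low fragments, are 129/Ola; whether that label holds for these 2 libraries was not tested. With the low fragments left out, an alternative added after the values were seen, the window changed by -0.31 in R2R3_KO against control (edgeR adjusted p = 0.00218) and by -0.11 in R1R2_KO against control (0.252). In R2R3_KO against R1R2_KO it then passed, at -0.20 (edgeR adjusted p = 0.0349). Results that rest on R1R2_KO library 1 are given with and without it.

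**Figure D1:**
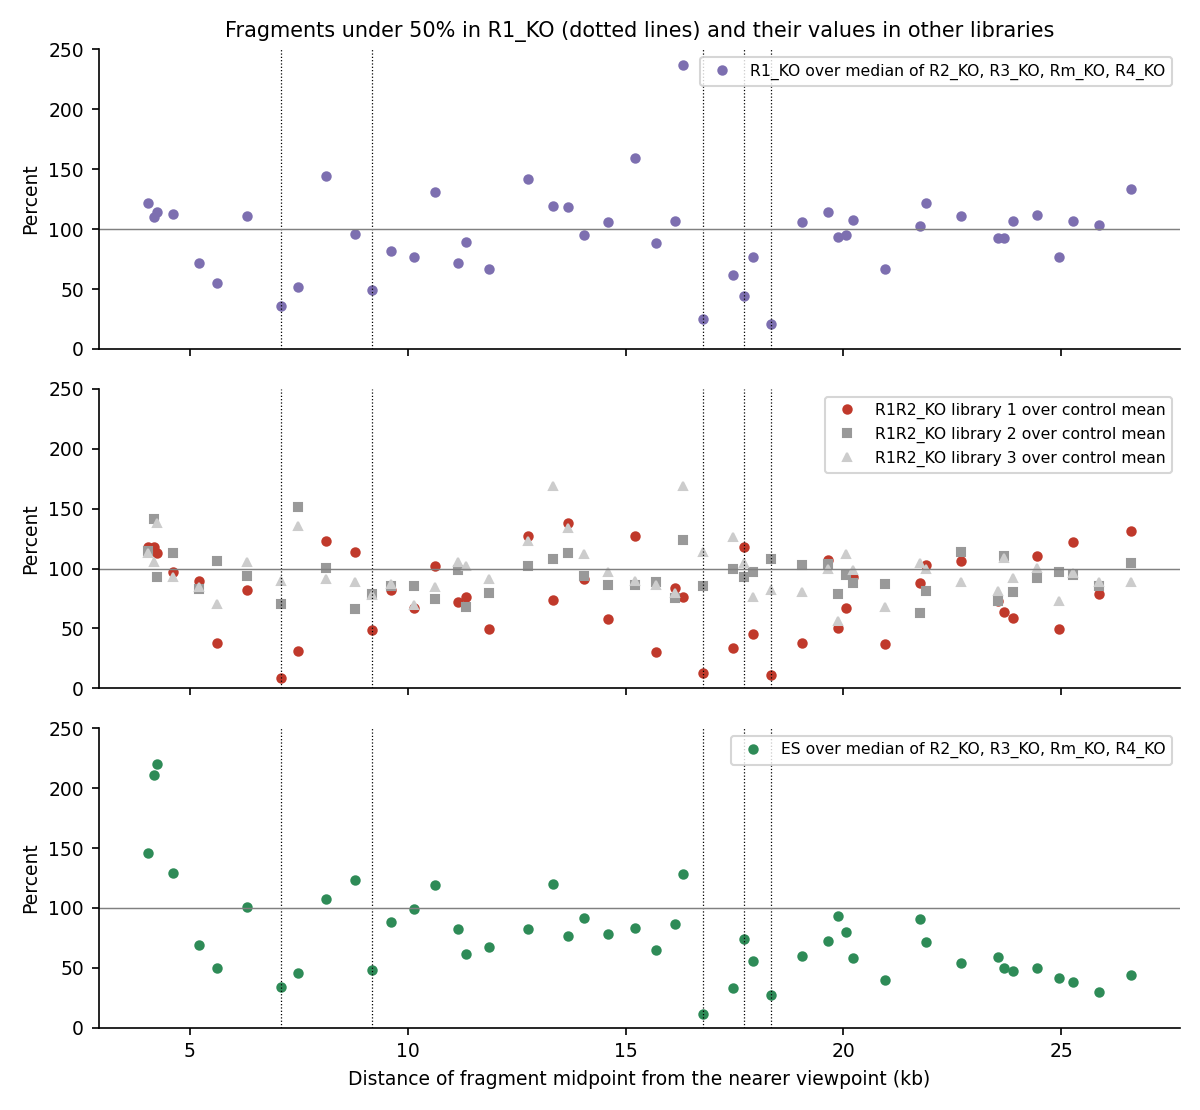
Percent of the comparison value at each of the 49 measured fragments, by distance of the fragment midpoint from the nearer captured promoter in kb. Dotted lines mark the 5 fragments below 50% in R1_KO (top); R1R2_KO library 1 (middle, red) and ES cells (bottom) are below 50% at 4 of them, while R1R2_KO libraries 2 and 3 (grey) are not.

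In R2R3_KO cells a smaller share of the adult promoters' chr7 contacts fell on the whole window than in control cells, and both neighbours of the window were lower too. Of its blocks, the spacer next to the adult genes and the Hbb-bh1 block passed on their own, and the Hbb-y block did not. The R2R3_KO libraries had 10048, 8862 and 9268 reads per 100000 in the window, against 11075, 12622 and 11782 in the control libraries. Every R2R3_KO library lay below every control library. The means were 9393 ± 603 and 11827 ± 774 (SD, n = 3 each), a log2 change of -0.33 (SE 0.094, by an edgeR quasi-likelihood test, Benjamini-Hochberg adjusted p = 0.0156). The exact two-sided permutation p was 0.1, the smallest that 3 against 3 libraries allow. With reads within 500 kb as the scale, the change was -0.083 and no longer passed (edgeR adjusted p = 0.215), and other scales gave -0.18 (TMM factors) to -0.68 (chr7 reads outside all regions), which passed. Without R2R3_KO library 2 it was -0.29 (edgeR adjusted p = 0.0694).

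The neighbours set this change in context. In R2R3_KO against control, the adult side changed by -0.45 (edgeR adjusted p = 0.0156) and the control region side by -0.39 (edgeR adjusted p = 0.0117) in the same fit. Of the 7 regions in that fit, 42.9% were called lower: these neighbours and the window. Alternatives for the neighbours were run in the fit that holds the 4 blocks in place of the window, where both had an edgeR adjusted p of 0.0090. There, without R2R3_KO library 2, neither passed (edgeR adjusted p = 0.0889 for both), and without control library 3 the control region side did not (0.0539). The adult side also lost its call with DESeq2 (-0.26, adjusted p = 0.0946), the 500 kb scale (-0.20, 0.0531) and the 5 kb exclusion (-0.39, 0.0688). Regions farther out were higher, at 0.49 for the far flank beyond the adult genes (edgeR adjusted p = 0.0156) and 0.39 for the far flank beyond the control region (edgeR adjusted p = 0.0203). Within a library, reads in the window over reads in the control region side came to 0.615 ± 0.004 in R2R3_KO and 0.589 ± 0.036 in control cells (exact two-sided permutation p = 0.4, SD, n = 3 each). The ratio of the window to the adult side was 0.795 ± 0.049 in R2R3_KO and 0.733 ± 0.046 in control cells (exact permutation p = 0.3). The ratio of the window to the mirror window was 2.07 ± 0.13 in R2R3_KO and 2.10 ± 0.10 in control cells (exact permutation p = 0.7). These tests cannot go below 0.1 with 3 against 3 libraries, so they could not have called a difference between the window and its neighbours.

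Within the window, the proximal spacer and the Hbb-bh1 block fell in R2R3_KO, and the middle spacer and the Hbb-y block did not pass. The proximal spacer had 3672, 3496 and 3246 reads per 100000 in R2R3_KO libraries, against 4407, 4958 and 4510 in control libraries. The groups did not overlap, and the log2 change was -0.41 (SE 0.094; adjusted p = 0.00413 in edgeR). The block around Hbb-bh1, a gene of primitive red cells, had 2149, 1618 and 2084 in R2R3_KO, against 2330, 2694 and 2578 in control. Again the groups did not overlap, with a change of -0.38 (SE 0.14, edgeR adjusted p = 0.0315). That call rests on several libraries: it was lost without R2R3_KO library 2 (-0.26, edgeR adjusted p = 0.214), R2R3_KO library 3 (0.0550), R1R2_KO library 3 (0.0520), control library 2 (0.136) or control library 3 (0.101). It was also lost with TMM factors (-0.28, 0.106), DESeq2 (-0.19, 0.207), the 500 kb scale (-0.13, 0.434) and the replicate block (0.0536), and the proximal spacer's call was lost with the 500 kb scale (-0.16, 0.0887). Both blocks were called lower, where 40% of the 10 regions of this fit were. The middle spacer had 1447, 1504 and 1560 in R2R3_KO, against 1713, 2045 and 1924 in control. Its groups did not overlap either, but its change of -0.33 (SE 0.18) missed the threshold (edgeR adjusted p = 0.170). Without R1R2_KO library 1, whose middle spacer was low and which shares the fit, the change was again -0.33 with an edgeR adjusted p of 0.0136. The block around Hbb-y, the first embryonic gene in the order of the locus, had 2781, 2244 and 2378 in R2R3_KO, against 2626, 2925 and 2770 in control. These groups overlapped, with a change of -0.17 (SE 0.12, edgeR adjusted p = 0.284), which turned to 0.021 with DESeq2 size factors and to 0.079 with reads within 500 kb as the scale. With chr7 reads outside all regions as the scale it was -0.52 and passed (edgeR adjusted p = 0.0486). The ratio of Hbb-y to Hbb-bh1 block reads was 1.27 ± 0.12 in R2R3_KO and 1.10 ± 0.03 in control cells (SD, n = 3 each), with no overlap and an exact permutation p of 0.1, the smallest possible, or 0.24 after Benjamini-Hochberg adjustment over the 12 ratio tests. This test could not have called a contrast between the blocks.

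**Figure D2:**
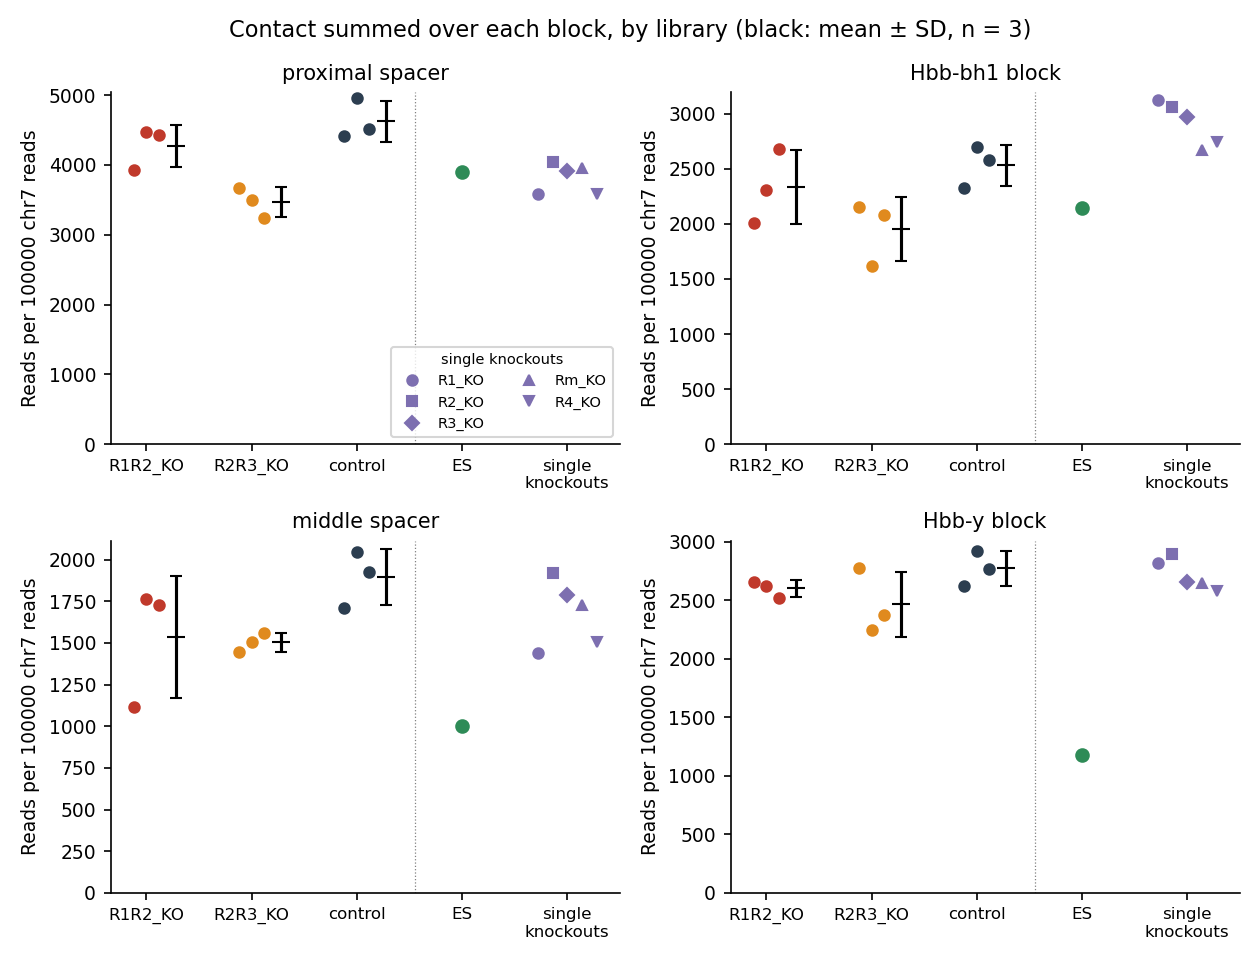
Reads per 100000 chr7 reads summed over each block in all 15 libraries; black marks are means ± SD of 3 libraries and the dotted line separates the 2 tables. R2R3_KO libraries lie below all control libraries in every block except the Hbb-y block, and ES cells lie far below the single knockouts in the Hbb-y block (1176 against 2577 to 2901).

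Deletion of R1 and R2 left no detectable change of the window. The R1R2_KO libraries had 9707, 11165 and 11356 reads per 100000, against 11075, 12622 and 11782 in control libraries, and these overlapped. The means were 10743 ± 902 and 11827 ± 774 (SD, n = 3 each), a log2 change of -0.14 (SE 0.094; adjusted p = 0.255 in edgeR). The lowest of the R1R2_KO libraries was library 1; without it the change was -0.071 (edgeR adjusted p = 0.585), and with reads within 500 kb as the scale it was 0.020. The 4 blocks changed by -0.12 (proximal spacer), -0.12 (Hbb-bh1), -0.31 (middle spacer) and -0.092 (Hbb-y), with edgeR adjusted p-values of 0.183 to 0.561. None passed, while 10% of the 10 regions were called lower. That region was the adult side, at -0.34 (edgeR adjusted p = 0.0226); without R1R2_KO library 1 it was -0.18 and did not pass (edgeR adjusted p = 0.0910). Leaving out either of R2R3_KO libraries 1 and 2, or either of control libraries 2 and 3, also ended the call (edgeR adjusted p 0.0723 to 0.0924), as did DESeq2 (0.128), limma (0.0523) and the scale of reads within 500 kb (0.0678). It was lost too with the whole-genome scale (edgeR adjusted p = 0.0966) and the scale of chr7 reads outside all regions (edgeR adjusted p = 0.0781). In R1R2_KO cells the window held 2.48 ± 0.23 times the reads of its mirror window, against 2.10 ± 0.10 in control cells (exact permutation p = 0.1, 0.24 adjusted over 12 ratio tests). It held 0.854 ± 0.114 times those of the adult side, against 0.733 ± 0.046 in control cells (exact permutation p = 0.1, 0.24 adjusted). An exact p of 0.1 is again the smallest possible, so neither ratio could pass. The highest of these ratios were 2.72 and 0.985, both in R1R2_KO library 1. Without that library, the log2 difference from control was 0.17 in place of 0.24 for the mirror window and 0.11 in place of 0.21 for the adult side.

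Between the knockouts, R2R3_KO lay below R1R2_KO at the adult end of the window. The proximal spacer had 3672, 3496 and 3246 reads per 100000 in R2R3_KO, against 3924, 4467 and 4423 in R1R2_KO, with no overlap. The log2 change was -0.30 (SE 0.095; adjusted p = 0.0167 in edgeR), in a fit where 20% of the 10 regions were lower; the other was the control region side, at -0.30. The spacer's call was lost without R1R2_KO library 2 or 3, R2R3_KO library 2 or 3, or control library 3 (-0.30 to -0.25, edgeR adjusted p 0.0539 to 0.0889). It was also lost with the whole-genome scale (0.0966), the scale of chr7 reads outside all regions (0.0928), the 5 kb exclusion (0.182) and the replicate block (0.0536). The Hbb-bh1 block changed by -0.26 (edgeR adjusted p = 0.170), the middle spacer by -0.026 and the Hbb-y block by -0.077, none of which passed. The signs for the middle spacer and the Hbb-y block turned under some scales. The window as a whole gave -0.19 (SE 0.095; adjusted p = 0.110 in edgeR). Without R1R2_KO library 1 the window change was -0.26 and passed (edgeR adjusted p = 0.0158), as did the Hbb-bh1 block at -0.36 (edgeR adjusted p = 0.0160).

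Single fragments carried the same direction with fewer calls. Of the 50 fragments, 49 had enough reads to be tested, at least 90 over the 9 replicated libraries; the other, chr7:110987095-110987244, had at most 9.7 reads per 100000 in any library. In R2R3_KO against control, 44 of 49 (89.8%) had a negative change, against 67.3% of all 339 tested fragments, and the median change was -0.35 against -0.22. None of the 49 passed (edgeR adjusted p at least 0.126; DESeq2 called 0), where 1.77% of the 339 were called lower, and 10 had an unadjusted p under 0.05, as did 15.3% of the 339. In 20 of the 49, every R2R3_KO library was below every control library, which held for 26% of all tested fragments. In R1R2_KO against control, 32 of 49 (65.3%) had a negative change, against 66.7% of all tested, with medians of -0.15 and -0.16. None passed (edgeR adjusted p at least 0.501; DESeq2 called 0), 0% of all tested fragments were called, and 2 of the 49 had an unadjusted p under 0.05, as did 7.67% of all tested.

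The number of calls in R2R3_KO against control depended on a library outside that comparison. When R1R2_KO library 1 was left out of the fit, 11 of the 49 fragments were called lower (edgeR adjusted p 0.000978 to 0.0393), where 18.9% of all tested fragments were. They lay in the proximal spacer (7, log2 change -1.02 to -0.46), the Hbb-bh1 block (3, -0.64 to -0.45) and the middle spacer (1, -0.66). None lay in the Hbb-y block. The fragment at the Hbb-bh1 position, chr7:110990422-110991220, was among them at -0.45 (edgeR adjusted p = 0.0389).

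Against R1R2_KO, 2 fragments were lower in R2R3_KO, where 2.65% of all tested fragments were, and DESeq2 called 0; 6 of the 49 had an unadjusted p under 0.05, as did 13% of all tested. The first is the member nearest to the adult genes, chr7:110980132-110980384. It had 284, 366 and 278 reads per 100000 in R2R3_KO, against 517, 502 and 493 in R1R2_KO, a log2 change of -0.70 (edgeR adjusted p = 0.0323). The control libraries lay between, at 414, 486 and 413. The second, chr7:110988558-110989412 in the Hbb-bh1 block, had 238, 187 and 223 in R2R3_KO, against 418, 334 and 402 in R1R2_KO, a change of -0.83 (edgeR adjusted p = 0.0284). Its control libraries had 344, 339 and 300. This fragment may hold the start of Hbb-bh2. Neither pair of knockout groups overlapped. Without R1R2_KO library 1, 5 fragments were called lower, 3 in the proximal spacer and 2 in the Hbb-bh1 block, and these 2 were among them; 6.78% of all tested fragments were then lower and 0.59% higher. Leaving out other libraries gave 0 or 1.

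**Figure D3:**
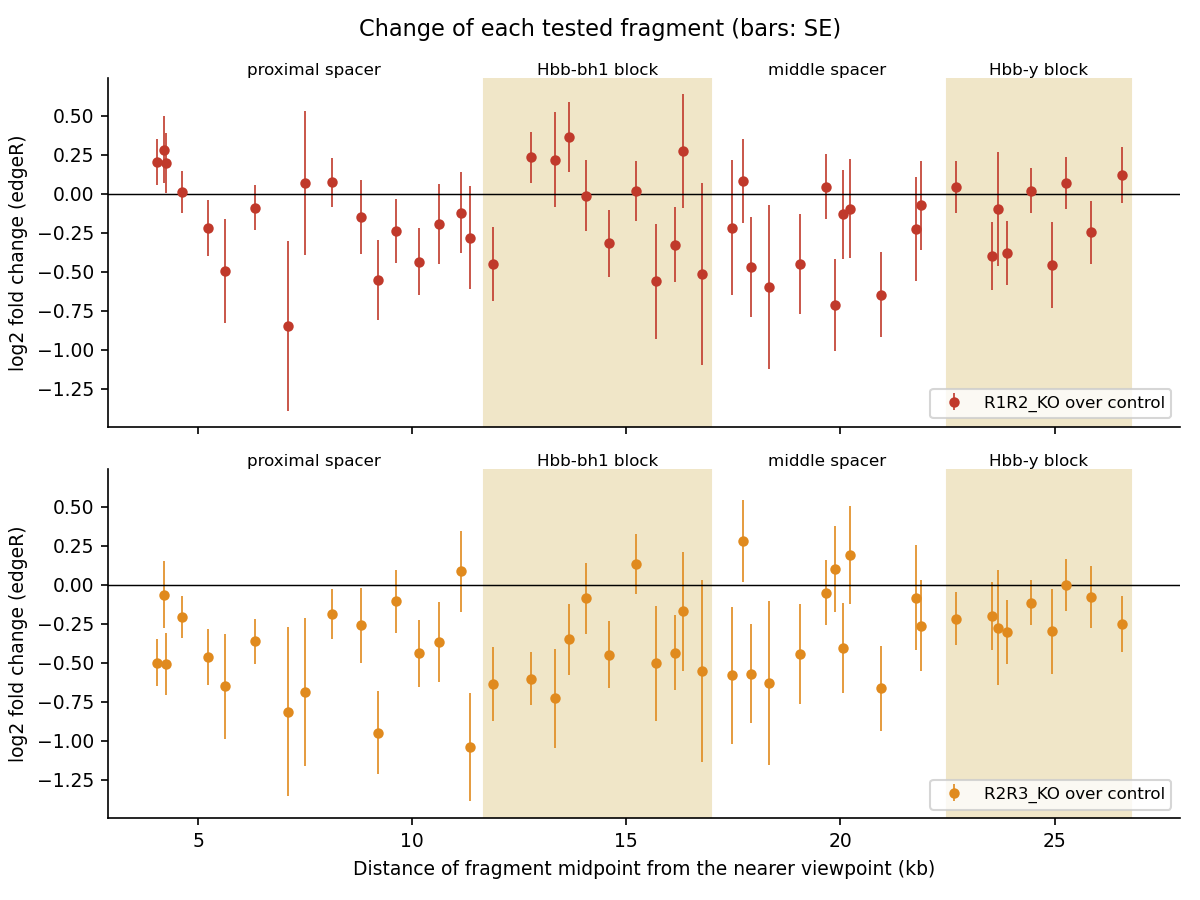
Fitted log2 change of each tested fragment with its SE, R1R2_KO over control (top) and R2R3_KO over control (bottom), by distance from the nearer captured promoter in kb. In R2R3_KO 44 of 49 points lie below 0, while in R1R2_KO 32 of 49 do.

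Without scaling to length, the fragments at the gene positions were among those of the window with more reads. They are 799 bp (Hbb-bh1) and 741 bp (Hbb-y) long. Per kb, control cells averaged 436 reads per 100000 in the Hbb-bh1 block and 552 in the Hbb-y block. The whole window averaged 515, the proximal spacer 621 and the middle spacer 404. Over the 49 tested fragments the control mean ran from 38.5 to 454 reads per 100000. This mean went with fragment length (Pearson r = 0.76 across 49 fragments of the same libraries on log2 scales, a description), and less with distance (r = -0.17). The fragment at the Hbb-bh1 position, chr7:110990422-110991220, had 327, 272 and 278 reads per 100000 in R2R3_KO, 230, 345 and 386 in R1R2_KO, and 319, 417 and 459 in control. The groups overlapped, and its changes of -0.45 in R2R3_KO and -0.32 in R1R2_KO did not pass with all libraries. The fragment at the Hbb-y position, chr7:111000286-111001026, had 433, 345 and 364 in R2R3_KO, 455, 381 and 415 in R1R2_KO, and 416, 440 and 382 in control. Its groups overlapped, with changes of -0.12 in R2R3_KO and 0.018 in R1R2_KO.

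The fragments with the most reads in each gene block were picked by their values in the control libraries. Their shares of window reads are thus a description with no test. In the Hbb-bh1 block, the pair with the highest control values was chr7:110988558-110989412 and chr7:110990422-110991220, of which only the latter holds the Hbb-bh1 position. The former may hold the start of Hbb-bh2. This pair held 5.40% ± 0.22 of window reads in R2R3_KO, 6.57% ± 0.44 in R1R2_KO and 6.14% ± 0.26 in control (SD, n = 3 each). R2R3_KO libraries lay below those of both other groups. The pair in the Hbb-y block, chr7:111000286-111001026 and chr7:111002452-111003149, held 7.75% ± 0.73 in R2R3_KO, 8.18% ± 1.87 in R1R2_KO and 7.02% ± 0.63 in control. The highest share, 10.3%, was in R1R2_KO library 1.

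**Figure D4:**
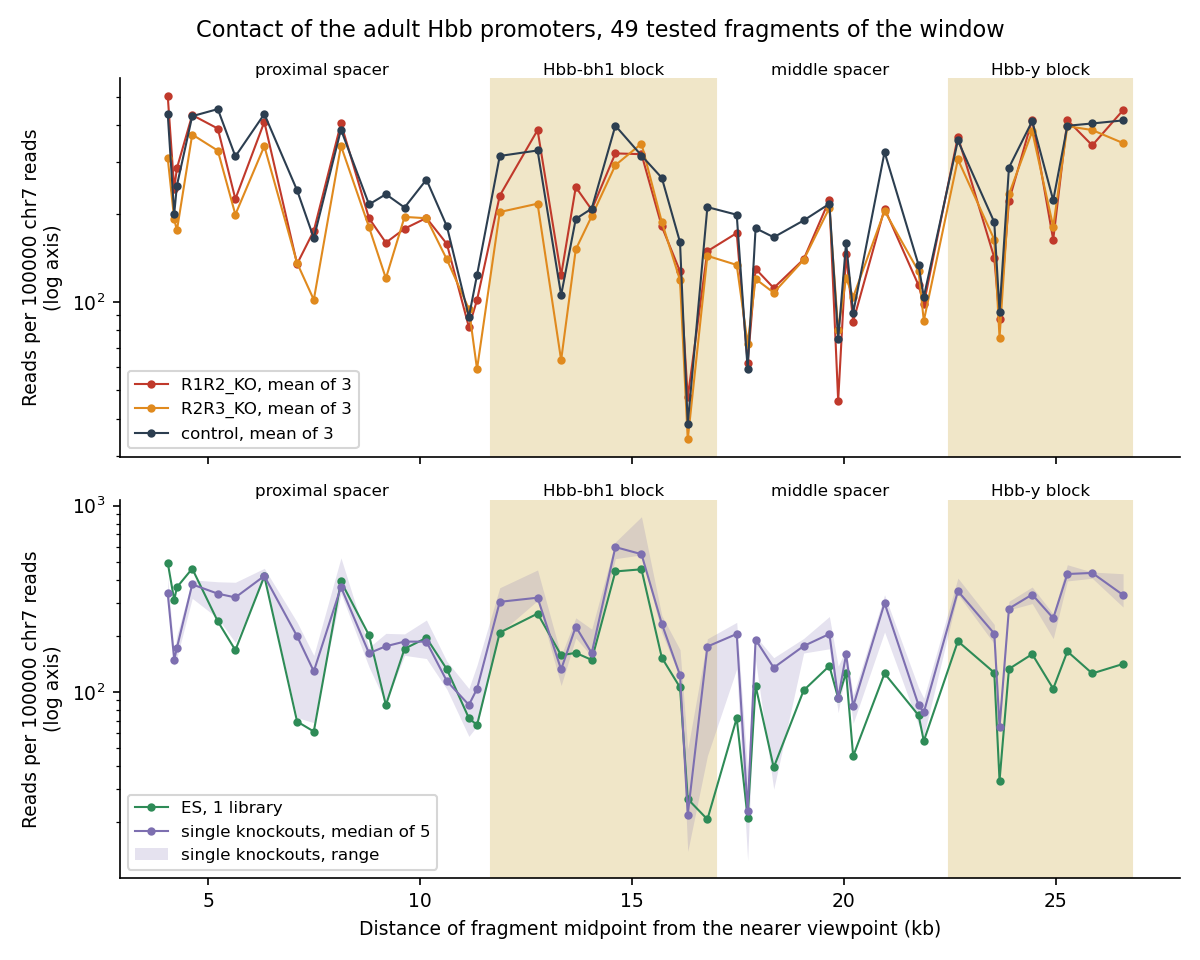
Reads per 100000 chr7 reads at each tested fragment (log axis) by distance from the nearer captured promoter in kb; top, means of 3 libraries for R1R2_KO, R2R3_KO and control; bottom, ES cells against the median and range of the 5 single knockouts. The 3 replicated groups follow one profile, and ES cells fall below the single knockouts towards the Hbb-y block.

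In ES cells, the control region side held a much smaller share of chr7 contacts than in the single knockouts. The shares of the embryonic window and the adult side were lower by less. Per 100000 chr7 reads, the window had 8218 in ES cells (Wilson 95% interval 8108 to 8330), against 10401 in R4_KO, 10955 in R1_KO, 10997 in Rm_KO, 11334 in R3_KO and 11927 in R2_KO. This is 0.747 of the single-knockout median, and the direction depends on the scale: with all reads of a library as the scale, the log2 ratio was 0.23 in place of -0.42. The control region side had 3233 in ES cells, against 16313 to 22741 in single knockouts, or 0.175 of the median. The adult side had 9625, against 12799 to 14230, or 0.716. Its direction too may depend on the scale. Of all reads, 236317 of 286120 were chr7 reads in ES cells, against 147721 of 243961 in R2_KO and 229993 of 470262 in R4_KO. The far flanks were higher in ES cells, at 5.15 times the median beyond the adult genes and 4.42 times beyond the control region. There is 1 library per group here, so these differences have no replicate check; intervals cover counting error only.

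Ratios within a library do not depend on that scale. Window reads over control region side reads came to 2.54 in ES cells, against 0.524 to 0.672 in the 5 single knockouts. The ratio to the adult side was 0.854 in ES cells, inside the range of the single knockouts (0.773 to 0.859). The ratio to the mirror window was 1.96 in ES cells, just under their range of 2.03 to 2.34. So in ES cells the window held reads in like proportion to the adult side as in erythroid cells, and several times more in proportion to the control region side. Per kb, ES cells had 358 reads per 100000 in the window, 237 on the adult side and 157 on the control region side, whereas the single-knockout medians were 479, 331 and 901. The order of window and control region side was thus opposite in ES and erythroid libraries.

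**Figure D5:**
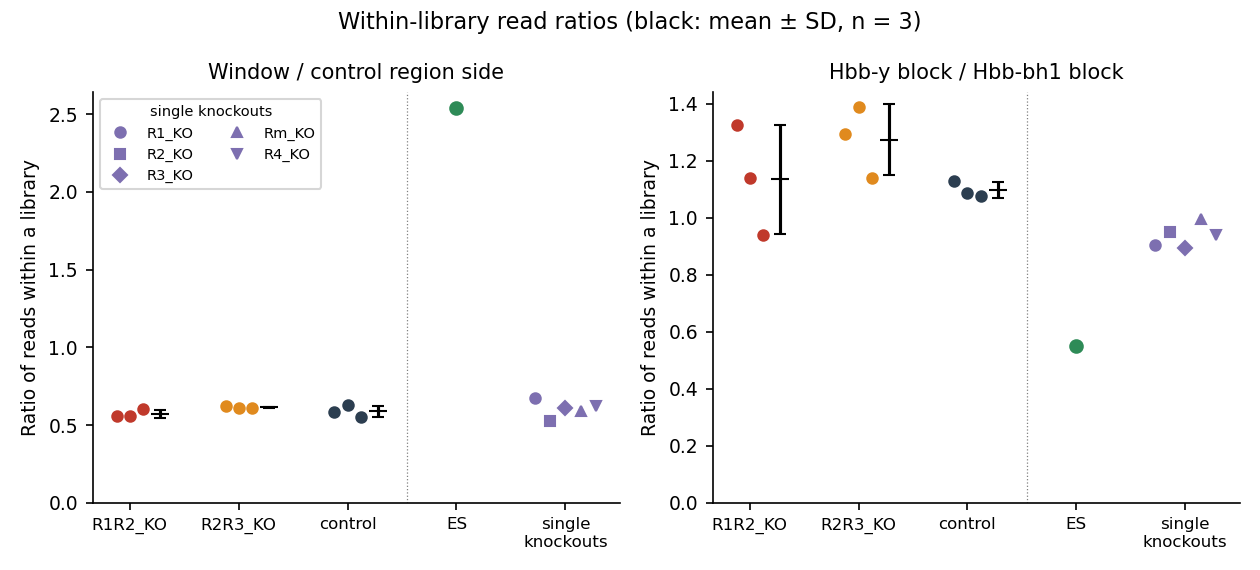
Reads in the window over reads in the control region side (left) and reads in the Hbb-y block over reads in the Hbb-bh1 block (right) in each of the 15 libraries; black marks are means ± SD of 3 libraries. ES cells stand at 2.54 and 0.549, outside the single knockouts at 0.524 to 0.672 and 0.894 to 0.994.

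Across the window, ES cells differed more from the single knockouts with each block towards the locus control region. The proximal spacer had 3898 reads per 100000 in ES cells, inside the single-knockout range of 3578 to 4043, or 0.996 of their median. The Hbb-bh1 block had 2143 in ES cells, against 2667 to 3122, or 0.721. The middle spacer had 1001, against 1438 to 1923, or 0.580, and the Hbb-y block 1176, against 2577 to 2901, or 0.442. The Hbb-y block over the Hbb-bh1 block came to 0.549 in ES cells, against 0.894 to 0.994 in the single knockouts. Without the fragments that are low in R1_KO, the block ratios were 1.07, 0.761, 0.586 and 0.442. All these block values are shares of chr7 reads. With all reads as the scale their direction may change, as it did for the window. The ratio of Hbb-y to Hbb-bh1 block reads does not depend on that scale.

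Fragment by fragment, on the same scale of chr7 reads, ES cells were above all 5 single knockouts in 6 of 49. They were inside their range in 13 and below all 5 in 30. Within 500 kb, 32.2% of measured fragments were above and 34.5% below. Of the 6 higher ones, 5 were in the proximal spacer; the first 4 fragments from the adult end were among them, the largest at 2.11 times the median. All 9 fragments of the Hbb-y block were below all 5 single knockouts, at 0.289 to 0.617 of the median. The fragment at the Hbb-y position had 160 reads per 100000 in ES cells, against 298 to 366. That position is approximate. By its distance from Hbb-bs, the Hbb-y start may lie in chr7:111001278-111001694 or in chr7:111001695-111002451. These had 165 and 126 in ES cells, against 394 to 481 and 407 to 440 in the single knockouts. The correlation of the log2 ratio with position was -0.52 over 49 fragments and -0.69 over the 44 not low in R1_KO, as a description across fragments of the same libraries.

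In ES cells as in single knockouts, a pair of fragments at the Hbb-bh1 position held more reads than those beside it, without scaling to length. The fragment at the gene position, chr7:110990422-110991220, had 443 reads per 100000 in ES cells and 519 to 638 in single knockouts. The next one, chr7:110991221-110991652, chosen after its values were seen, had 455 in ES cells and 543 to 871 in single knockouts. The fragments beside this pair, chr7:110990104-110990421 and chr7:110991653-110992180, had 149 and 153 in ES cells. In the single knockouts they had 155 to 217 and 208 to 257. Control cells averaged 398 and 315 at the pair, and 208 and 265 at the fragments beside it. The fragments differ in length, at 799 and 432 bp for the pair and 318 and 528 bp beside it. Per kb, the fragment at the gene position had fewer reads in control cells than the 318 bp fragment beside it. In ES cells and in each single knockout it had more. The 432 bp fragment had the most per kb in all of these. These differences were not tested. The pair of the Hbb-bh1 block defined in the control libraries held 8.59% of window reads in ES cells, within the 7.53% to 9.58% of the single knockouts. The pair of the Hbb-y block held 3.66% in ES cells, below their 5.15% to 7.18%.

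Among the single knockouts, the window ran from 10401 in R4_KO to 11927 reads per 100000 in R2_KO. R1_KO had the lowest middle spacer (1438) and the highest Hbb-bh1 block (3122), and it has 2 and 1 of the low fragments there.

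The fragments at the ends of the window differ in length, so their values are given side by side and not compared. At the adult end, the fragment just inside, chr7:110980132-110980384, averaged 309 reads per 100000 in R2R3_KO, 504 in R1R2_KO and 438 in control, and the one just outside, chr7:110979068-110980131, 336, 608 and 653. At the control region end, chr7:111002452-111003149 inside averaged 347, 450 and 415, and chr7:111003150-111004699 outside 307, 348 and 374. In ES cells the inner fragments had 494 and 141 and the outer ones 382 and 112. Per kb, the window had 409 ± 26 reads per 100000 in R2R3_KO, 468 ± 39 in R1R2_KO and 515 ± 34 in control (SD, n = 3 each), against 743, 914 and 977 on the control region side, 291, 316 and 399 on the adult side, and 203, 196 and 253 in the mirror window.

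Of 122 bins of 5 kb within 500 kb and outside the window, the 3 that varied most like it over the 9 replicated libraries were on the control region side. They were chr7:111014740-111020366 (r = 0.95), chr7:111009748-111014739 (r = 0.93) and chr7:111020367-111023773 (r = 0.93). The next, looked up after its value was seen, was chr7:110969782-110974330 on the adult side (r = 0.86). Over the 14 erythroid libraries, which join both tables, the values were 0.82, 0.79, 0.85 and, for the bin on the adult side, 0.84. These are descriptions over libraries that share their depth scale and span the compared groups.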

How the data were processed

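Raw read counts per DpnII fragment, as the authors deposited them, were used for the adult beta-globin viewpoint; per the submitters' processing notes, Trim Galore, Bowtie and mm9 served as trimmer, aligner and build, and the sources used here give no versions. The window and the lists were chosen with earlier results of these data known. Viewpoints were the gaps of at least 1500 bp in the tables. Counts within 500 kb with at least 90 reads over 9 libraries were tested with edgeR 4.0.16 in R 4.3.3 (quasi-likelihood, group as the only term, 9 libraries in 1 fit, chr7 reads over 2 kb from the gaps as library size, Benjamini-Hochberg at 0.05); regions on summed counts were adjusted over regions and 3 contrasts. The spread is shared across features, so small p-values rest on more than 3 against 3 libraries. All reads per library were 45301 to 99096 in the replicated and 243961 to 470262 in the other libraries. Ratios were tested by exact permutation in scipy 1.17.1. Intervals are Wilson 95% intervals and cover counting error only, since no molecular identifiers were counted. The edgeR step was tested on simulated counts. Alternatives were DESeq2 1.42.0, limma 3.58.1 with a pseudocount of 1, TMM factors, other scales, exclusion of 5 kb, other filters, shifted window ends, a replicate block and leaving out each library; leaving out fragments low in R1_KO was added after seeing the data. Named fragments are those at the gene positions, the pair with the most reads per gene block in controls, called fragments and both ends. In the table of the controls, 7 columns match no sample here and were not used. Replicates are called biological in the labels. Nothing says whether they share litters, days or runs, so the p-values reflect the spread among these libraries alone.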

Additional observations from a re-analysis of the deposited data

How the results depend on the processing

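For the window, R2R3_KO against control kept its direction under every alternative run (log2 -0.68 to -0.083) and its call under all but the 500 kb scale (-0.083) and the fit without R2R3_KO library 2; leaving out 1 library gave -0.38 to -0.28. R1R2_KO against control passed under none, at -0.18 to -0.071 with 1 library left out, and turned to 0.020 with the 500 kb scale. R2R3_KO against R1R2_KO passed with TMM factors (-0.17), DESeq2 (-0.19), the window widened by 2 kb (-0.26) and without the fragments low in R1_KO (-0.20), and ran from -0.26 to -0.15 with 1 library left out. The causes were not tested.

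Of the 4 blocks, R2R3_KO against control called 2; TMM factors and DESeq2 called 1 each, the 500 kb scale 0, the scale of chr7 reads outside all regions 4, and leaving out 1 library 1 to 3. R2R3_KO against R1R2_KO called 1; the whole-genome scale, the scale outside all regions and the 5 kb exclusion called 0, and leaving out 1 library 0 to 2. Members called in R2R3_KO against control numbered 3 with the scale outside all regions and 0 to 11 with 1 library left out. In R2R3_KO against R1R2_KO they numbered 1 with the whole-genome scale and with the 5 kb exclusion, 0 with TMM factors, DESeq2, the 500 kb scale, the scale outside all regions and no filter on low counts, and 0 to 5 with 1 library left out.

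The small block changes turned sign with the scale. With the 500 kb scale R1R2_KO against control gave 0.044 in the proximal spacer, 0.038 in the Hbb-bh1 block, 0.075 in the Hbb-y block and 0.064 on the control region side. For the Hbb-y block TMM factors gave 0.0093 and DESeq2 0.021, and DESeq2 gave 0.012 on the control region side. R2R3_KO against control in the Hbb-y block gave 0.021 (DESeq2) and 0.079 (500 kb scale). R2R3_KO against R1R2_KO gave, in the middle spacer, 0.066 (DESeq2), 0.077 (500 kb scale), 4.1e-05 (limma) and -0.22 to 0.086 with 1 library left out. In the Hbb-y block it gave 0.00077 (DESeq2) and 0.0034 (500 kb scale), and on the adult side 0.10 with the 5 kb exclusion. That exclusion also moved the log2 ratio of window to adult side to -0.0014 in R2R3_KO against control and to -0.32 in R2R3_KO against R1R2_KO. The log2 ratio of ES cells to the single-knockout median was -0.28 with the 500 kb scale, 0.23 with the whole-genome scale and -0.64 with the 5 kb exclusion.

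Whether replicate numbers pair the libraries was not settled. Deviations of same-numbered libraries correlated at -0.13 to 0.30, and those of differently numbered libraries were not compared. With the replicate block the window change in R2R3_KO against control was -0.33 (edgeR adjusted p = 0.0403), and the number of blocks called was 1 in R2R3_KO against control and 0 in R2R3_KO against R1R2_KO. Spread between libraries limits single fragments: the median coefficient of variation over libraries was 16.3% in R2R3_KO, 19.9% in R1R2_KO and 13.2% in control.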
